A study of Mus musculus with 6 samples.

Results

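The prehypertrophic zone is the middle of the 3 zones of growth plate cartilage that were profiled, and its microRNAs (miRNAs) were compared with those of the zones on either side of it. The comparison took in all 6 arrays of the series: the 2 arrays of the prehypertrophic zone against the 4 arrays of the proliferative and hypertrophic zones, which entered as the mean of their 2 zone means. It covered every mouse miRNA on the array, 690 in all, and asked which miRNAs peaked or dipped in the middle zone in place of changing steadily. Each group held cartilage microdissected from the femur of 12-day-old C57BL/6 mice with no treatment and no engineered allele named in the labels, and in the labels the groups differ by zone. On the slide they also differed by row, as described with the other settings. One array carried 100 ng of total RNA from a pool of 5 growth plates. The labels call the hybridizations independent, but they do not say which mice entered a pool. The p-values set a difference against the spread between arrays of the same zone, and whether that is a spread between mice is not known.

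The growth plate lengthens long bones. Its chondrocytes divide in columns in the proliferative zone, leave the cell cycle and begin to signal to their neighbours, through Indian hedgehog among others, in the prehypertrophic zone, and swell and mineralize their matrix in the hypertrophic zone before vessels and bone cells invade. miRNAs are short RNAs that lower the output of target transcripts, which they find chiefly through bases 2 to 8, the seed. A hairpin precursor can give a mature miRNA from each arm, and the arm written with a star is the one first seen at the lower level.

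In the prehypertrophic zone 3 miRNAs were higher than the mean of the outer zones (1.33% of 226 tested) and 1 was lower (0.442%). Calls were fewer or more under other scalings, with 1 higher and 0 lower after median scaling or quantile normalization, 0 and 0 when the 75th percentile covered all probes, and 6 and 1 with the authors' deposited values. The higher ones were miR-181a-1*, miR-322* and miR-503, and the lower one was miR-451. miR-322* and miR-503 come from 1 cluster of miRNA genes on the X chromosome, all 7 tested members of which had a positive difference. No miRNA lay beyond both outer zones at an adjusted p under 0.05, either above (0%) or below (0%), so a peak or a dip relative to each outer zone was not called for any miRNA.

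The mature sequences below are those of the 4 called miRNAs, of the other tested members of the X-linked cluster and of the 5′ arm of the miR-181a hairpin, whose level moved differently from that of its 3′ arm. They are taken from RefSeq (GRCm38.p6), written 5′ to 3′, with the seed in capitals.

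miR-181a-1*: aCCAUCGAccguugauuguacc

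miR-181a: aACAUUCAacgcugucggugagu

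miR-503: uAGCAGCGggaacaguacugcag

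miR-322*: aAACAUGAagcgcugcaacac

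miR-322: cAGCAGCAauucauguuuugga

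miR-351: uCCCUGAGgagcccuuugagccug

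miR-542-3p: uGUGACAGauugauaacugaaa

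miR-542-5p: cUCGGGGAucaucaugucacga

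miR-450b-3p: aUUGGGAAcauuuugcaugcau

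miR-451: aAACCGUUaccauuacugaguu

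The 7 X-linked sequences lie on the minus strand within 6.32 kb, at chrX:53048008-53054327. Their seeds differ from one another. That of miR-322, AGCAGCA, is the seed of the miR-15 and miR-16 family, and that of miR-503, AGCAGCG, ends in another base. The seed of miR-351, CCCUGAG, is that of the 5′ arms of miR-125a and miR-125b. miR-181a-1* and miR-181a are the 2 arms of a hairpin on the plus strand of chromosome 1, at chr1:137966508-137966529 and chr1:137966468-137966490. An identical miR-181a is also encoded on chromosome 2. miR-451 lies at chr11:78073186-78073207.

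Between 24.2% and 27.9% of the miRNA spots on an array were well above background, and no spot was saturated. Of 690 miRNAs, 205 were well above background on both prehypertrophic arrays, 201 on both proliferative and 216 on both hypertrophic arrays. Tests covered the 226 that were so in at least 1 zone, and the other 464 were not tested. Across the tested miRNAs the 2 prehypertrophic arrays correlated at 0.977, and a prehypertrophic with an outer array at 0.939 to 0.968 (Pearson, log2 signal), values that describe the arrays only, since miRNAs are not independent. The cartilage label was borne by miR-140 and miR-140*, the 2 arms of the hairpin most used as a mark of chondrocytes, both well above background on all 6 arrays. Of the 8 names of the cartilage list on the array, 7 were well above background on some array. One of them, miR-675-3p (named after its values were seen), was so on neither hypertrophic array. Markers of skeletal muscle, smooth muscle and liver were well above background on no array. Of 7 epithelial markers 2 were tested. miR-429 was well above background on all 6 arrays and miR-205 on 5, and neither was called between the zones. Of 2 nerve markers 1 was well above background on some array but was not tested, and their summed scaled signal was -3.61 to 31.5 on the proliferative, -3.4 to 14.5 on the prehypertrophic and -1.12 to 21.7 on the hypertrophic arrays.

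Signals are given below as log2 of the scaled signal, on which the floor for dim spots is 3.66, and a difference is the prehypertrophic mean minus the mean of the outer zone means, with its standard error (SE) and the adjusted p from limma. Across the 226 tested miRNAs these differences had a median of -0.08 and quartiles of -0.33 and 0.17, and 190 lay within 0.5 of 0. A positive difference was found for 94 (41.6%). Without adjustment, 12 were higher (5.31%) and 13 lower (5.75%) at p under 0.05. The tissue was analysed in bulk, so a higher share of cells that carry a miRNA and more of it per cell cannot be told apart.

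miR-181a-1* had the largest difference among the miRNAs tested. Its signal was 6.15 and 6.62 on the prehypertrophic arrays, 5.81 and 5.89 on the hypertrophic arrays and at the floor on both proliferative arrays, where it was not well above background. The middle zone was thus the highest, with the hypertrophic zone close beneath it and the proliferative zone dim. Against the mean of the outer zones the difference was 1.63 (SE 0.23, adjusted p = 0.00475), which as a bound is at least 2.87-fold. Such a bound sets the brighter mean against the higher of the dim probe's own signal and the lowest signal well above background on that array. The prehypertrophic signal was at least 5.69-fold that of the proliferative zone, where the floor set the spread to 0 and left it unmeasured. It exceeded that of the hypertrophic zone by 0.54 (SE 0.26, adjusted p = 0.275), which did not pass. The other probe for this miRNA gave a difference of 1.19.

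The opposite arm of the same hairpin did not share this order. miR-181a lay at the floor on both proliferative arrays, at 4.58 and 4.76 on the prehypertrophic and at 5.56 and 6.12 on the hypertrophic arrays, so that its middle zone lay between the outer ones. Its difference was -0.08 (SE 0.24, adjusted p = 0.878), a value that depends on the floor set for the proliferative arrays and was 0.42 with 0.5 times that floor. miR-181b, of the same family, was at 5.74 and 6.14, then 6.40 and 7.04, then 7.64 and 7.89 in the same order of zones, with a difference of -0.13 (adjusted p = 0.816). miR-181d had a difference of -0.52 (adjusted p = 0.491). Of the 4 tested members of the family, 1 difference was therefore positive and 3 were negative, with a median of -0.11 beside -0.08 over all tested miRNAs (0.75 for the family with the authors' deposited values). The difference of miR-181a turned positive under quantile normalization (0.03) and with the authors' deposited values (1.5), among other settings.

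miR-322*, the 3′ arm of the miR-322 hairpin, had the smallest p of all tested miRNAs for lying outside both outer zones. Its signal was 4.71 and 4.05 on the proliferative, 5.89 and 6.27 on the prehypertrophic and 4.89 and 5.22 on the hypertrophic arrays. Both prehypertrophic arrays lay above all 4 outer arrays. The difference was 1.36 (SE 0.26, adjusted p = 0.0281), a 2.57-fold higher signal than the outer mean. With the run of title numbers as a block the same difference did not pass (adjusted p = 0.0638), and the other 3 calls did. The middle zone exceeded the proliferative zone by 1.70 (SE 0.30, adjusted p = 0.00906) and the hypertrophic zone by 1.03 (SE 0.30, adjusted p = 0.135). The larger unadjusted p of these limma contrasts was 0.00599, and adjusted over all miRNAs it did not pass. It was well above background on 5 arrays, all but the second proliferative one. The other 3 probes for miR-322* were at or near the floor and differed by 0, 0 and 0.10, so the value rests on 1 probe.

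miR-503 reached its level in the middle zone and kept it. Its signal was 6.65 and 6.47 on the proliferative, 8.48 and 8.64 on the prehypertrophic and 8.07 and 8.44 on the hypertrophic arrays. The prehypertrophic arrays again lay above all others, narrowly so for the lower of them against the higher hypertrophic array. Its difference was 1.15 (SE 0.23, adjusted p = 0.0281), or 2.22-fold. The step from the proliferative zone was 2 (SE 0.26, adjusted p = 0.00108), and the middle zone differed from the hypertrophic zone by 0.30 (SE 0.26, adjusted p = 0.467). Its other probe gave the same difference, 1.15.

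**Figure D1:**
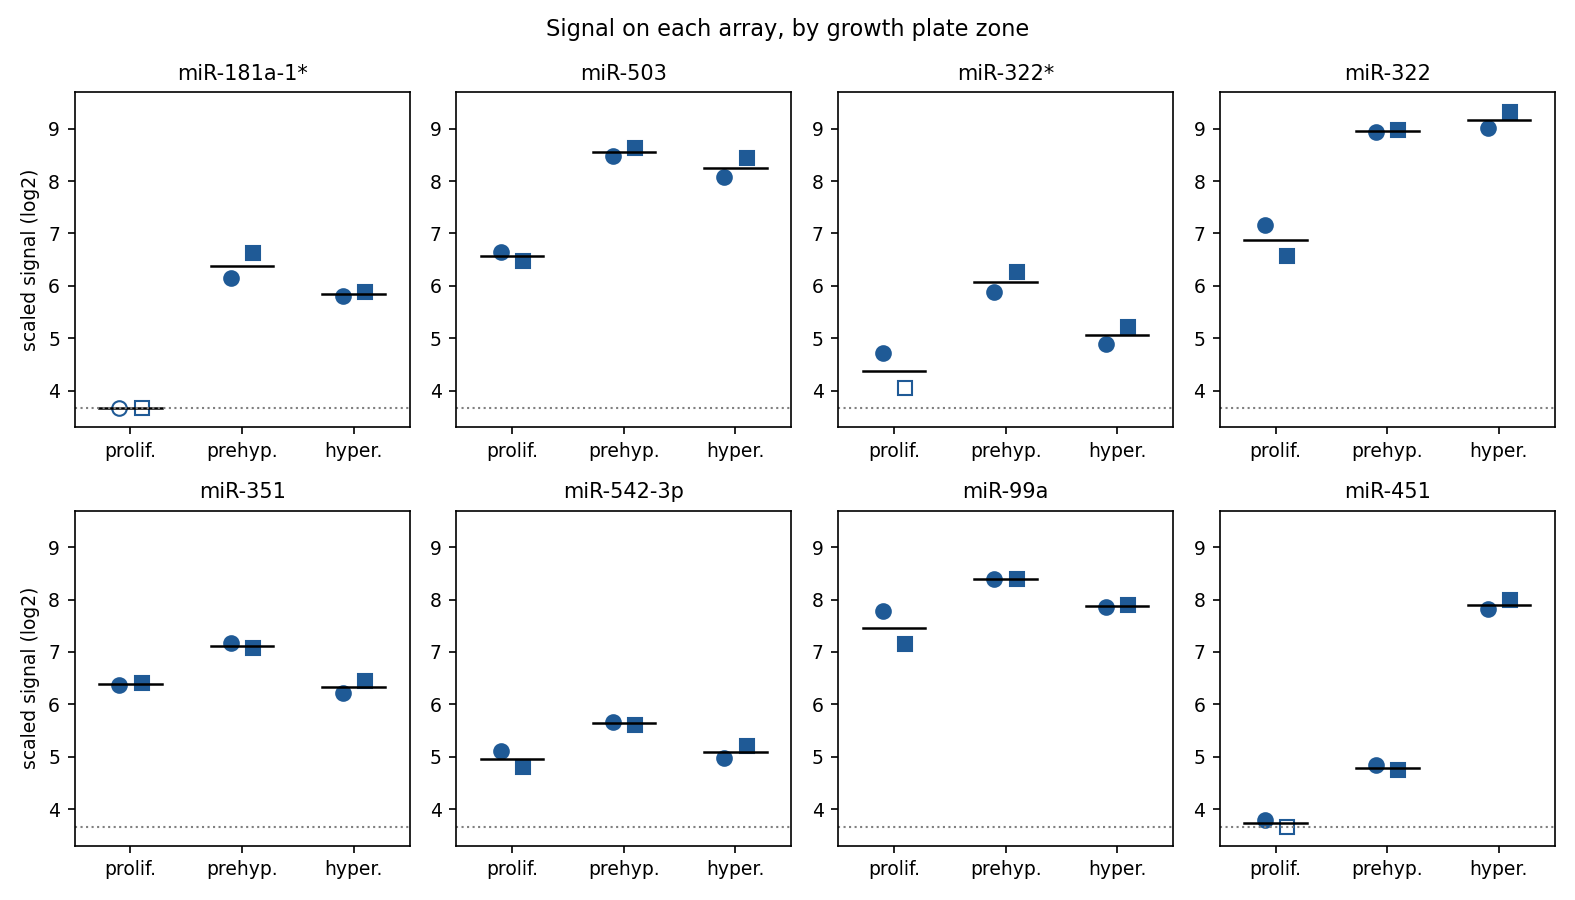
Scaled signal (log2) of 8 miRNAs on each of the 6 arrays, by zone. Circles and squares are the first and second array of a zone, open symbols are arrays where the miRNA was not well above background, bars are zone means and the dotted line is the floor at 3.66. miR-181a-1*, miR-322*, miR-351, miR-542-3p and miR-99a have both prehypertrophic arrays above all 4 outer arrays, as does miR-503, whereas miR-322 is as high in the hypertrophic zone and miR-451 is highest there.

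Among the other tested members of the X-linked cluster, miR-351 came nearest to a peak. Its signal was 6.37 and 6.40 on the proliferative, 7.17 and 7.07 on the prehypertrophic and 6.21 and 6.44 on the hypertrophic arrays, so the outer zones had nearly the same level and the middle zone stood above both. The middle zone exceeded the proliferative zone by 0.74 and the hypertrophic zone by 0.79 (SE 0.25 each). The difference was 0.76 (SE 0.22), which did not pass (adjusted p = 0.136). The other probes for miR-351 were dim and differed by 0, 0 and 0.46. Unadjusted, miR-351 and miR-322* were the only miRNAs above both outer zones with p under 0.05 in limma (0.885%), and none was below both (0%). 

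miR-322, the 5′ arm of the hairpin that yields miR-322*, was as high in the hypertrophic as in the middle zone. Its signal was 7.16 and 6.57 on the proliferative, 8.94 and 8.98 on the prehypertrophic and 9.02 and 9.32 on the hypertrophic arrays. The difference from the outer mean was 0.94 (SE 0.24, adjusted p = 0.103). The middle zone exceeded the proliferative zone by 2.10 (SE 0.28, adjusted p = 0.00108) and differed from the hypertrophic zone by -0.21 (SE 0.28, adjusted p = 0.64). The 2 arms of this hairpin thus had their highest mean in different zones, as did those of miR-181a, although the difference between the arms was not tested.

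The remaining cluster members had smaller values in the same direction. miR-542-3p was at 5.67 and 5.60 in the middle zone and between 4.81 and 5.21 on the outer arrays, with a difference of 0.61 (SE 0.22, adjusted p = 0.306). miR-542-5p, from the same hairpin, had a difference of 0.36 (SE 0.27, adjusted p = 0.551), and its arrays overlapped between zones. miR-450b-3p was dim: it was well above background on both prehypertrophic arrays (4.34 and 4.51), on 1 hypertrophic array and on no proliferative array. Its prehypertrophic signal was at least 1.46-fold that of the proliferative zone, and its difference was 0.64 (SE 0.23, adjusted p = 0.306). The 4 untested members were miR-503*, miR-450a-3p and miR-450b-5p, well above background on no array, and miR-450a-5p, well above background on 1.

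Over the cluster, 7 of 11 miRNAs on the array were tested. 2 were called higher (1.33% of all tested miRNAs were) and 0 lower, 6 were higher at a p under 0.05 before adjustment (5.31% of all tested), and 5 had both prehypertrophic arrays above all 4 outer arrays, which held for 16 of all tested miRNAs (7.08%). The cluster median was 0.76, and 0.78 to 1.14 under 4 other scalings and with the authors' deposited values, with all 7 differences positive in each. The cluster was known to stand out in these data before it was described here, so its count is a description. Members that reach the tested set through the zone where they are bright had less room to differ the other way. This held for miR-450b-3p, which was tested through the prehypertrophic zone alone. It is counted among the 7 positive differences, the 6 and the 5. The X-linked miR-20b, which belongs to a separate cluster of the miR-17 type, had a difference of 0.46 (adjusted p = 0.503).

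**Figure D2:**
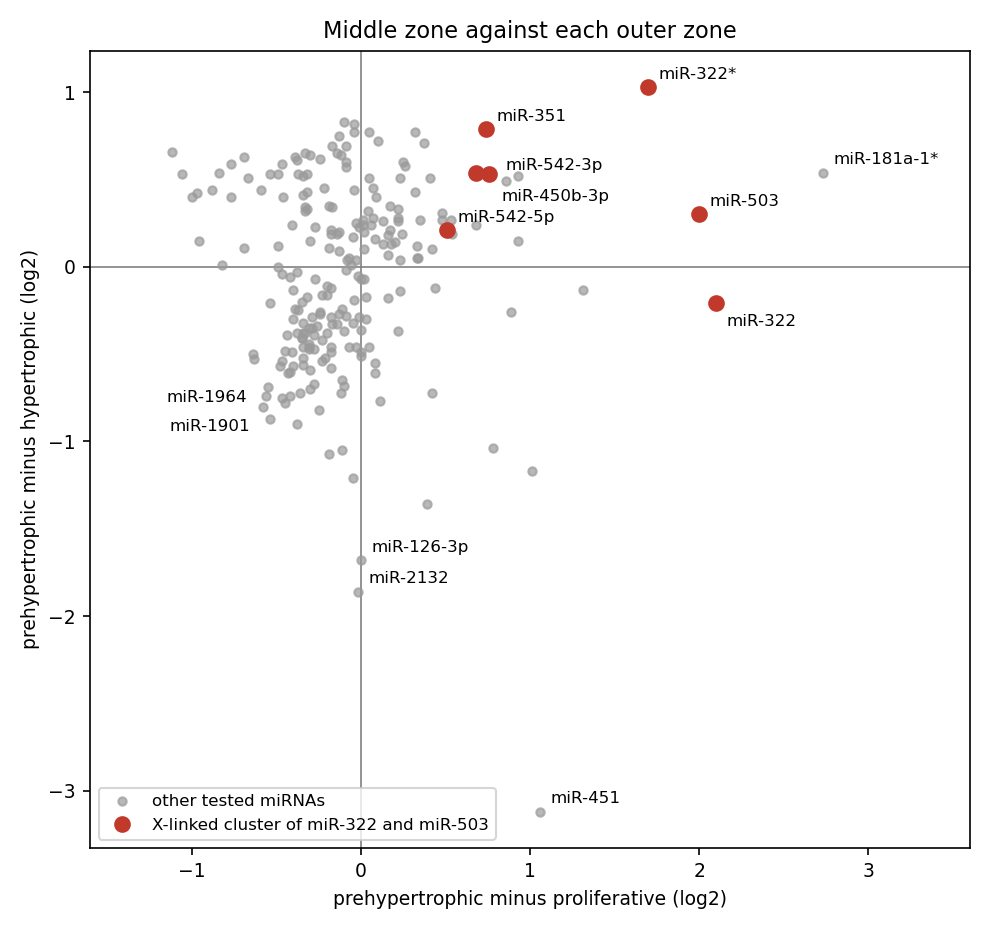
Difference of the prehypertrophic from the proliferative zone (horizontal, log2) and from the hypertrophic zone (vertical, log2) for each of the 226 tested miRNAs. Points in the upper right quadrant have the middle zone highest and those in the lower left have it lowest. The 7 tested members of the X-linked cluster (red) have positive horizontal values, and miR-322* is farthest from both axes in the upper right, at 1.70 and 1.03.

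Values within a group of miRNAs that share a seed varied. The 6 tested miRNAs with the seed AGCAGCA had differences from -0.53 (miR-15a) to 0.94 (miR-322), with miR-16 at -0.35, miR-195 at 0.28 and miR-497 at 0.36. The 5 of them in the miR-15 and miR-16 family, known to restrain the cell cycle, had a median of -0.03 (-0.02 to 0.19 under the other scalings and with the authors' deposited values, and 0.65 with the slide row as a block), and none was called. The 3 tested miRNAs with the seed CCCUGAG ranged from -0.08 to 0.76, miR-351 being the highest. Those with the seed ACCCGUA ranged from -0.07 to 0.72, with miR-99a at the top and miR-100 at 0.26.

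Outside the cluster, 3 further miRNAs were among the 10 highest by p-value, and none of them passed. miR-99a was at 8.39 and 8.4 on the prehypertrophic, 7.78 and 7.15 on the proliferative and 7.85 and 7.90 on the hypertrophic arrays, so the prehypertrophic arrays were above all others. Its difference was 0.72 (SE 0.24, adjusted p = 0.306). miR-455*, from a hairpin in a collagen gene (Col27a1) of cartilage, was at 5.54 and 5.62 in the middle zone, against 4.81 and 4.63 in the proliferative and 4.86 and 5.32 in the hypertrophic zone. Its difference was 0.67 (SE 0.23, adjusted p = 0.306). The other probe for miR-455*, near the floor, differed by 0.10, so the value rests on 1 probe, while the other probe for miR-99a gave 1. miR-22 had a difference of 0.59 (SE 0.22, adjusted p = 0.306), with 8.13 and 8.36 in the middle zone close to 8.31 and 8.45 in the hypertrophic zone and above 7.07 and 6.81 in the proliferative zone.

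In all, 16 of 226 tested miRNAs (7.08%) had both prehypertrophic arrays above the 4 outer arrays. Beside the 5 of the X-linked cluster, miR-181a-1*, miR-99a and miR-455*, they held 3 of the 10 tested miRNAs listed for the miR-17 to miR-92a cluster and its paralogues, which are known for driving proliferation. These were miR-19b (0.39), miR-20a (0.40) and miR-20b (0.46), of which miR-20a and miR-20b share the seed AAAGUGC. None of these was called (adjusted limma p of 0.503 to 0.535). The list leaves out miR-92a*, the star arm of miR-92a, whose prehypertrophic arrays both lay below all outer arrays (-0.58). miR-152 (0.46) and miR-212 (0.37) were also among the 16, as were miR-350 (0.28), miR-466g (0.31) and miR-669f (0.17), these last 3 named after their values were seen. miR-350 and miR-450b-3p, counted among the 16, were tested through the prehypertrophic zone alone, which left them less room to differ the other way. Of the 16, 3 passed the test. The median difference of the 16 was 0.53. Their signal was higher in the second run of title numbers than in the first for 3 on the proliferative arrays. It was so for 10 on the prehypertrophic and 2 on the hypertrophic arrays, beside 54.9%, 67.7% and 54.4% of all tested miRNAs in these zones.

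The only lower call was that of miR-451, an erythroid miRNA, and it did not describe a dip. Its signal was 3.79 and 3.66 on the proliferative, 4.84 and 4.74 on the prehypertrophic and 7.82 and 7.99 on the hypertrophic arrays. The middle zone thus lay between the outer zones, nearer the proliferative one. The difference from the outer mean was -1.03 (SE 0.22, adjusted p = 0.0347), made of 1.06 over the proliferative zone (SE 0.25, adjusted p = 0.0513) and -3.12 under the hypertrophic zone (SE 0.25, adjusted p = 1.99e-05). The second proliferative array was at the floor and not well above background, so these values depend on the floor. With 0.5 times the floor miR-451 was not called. Its other probe gave -1.52. Of the 3 red cell miRNAs on the array miR-451 alone was tested, and the summed scaled signal of the 3 was 7.59 to 21.3 on the proliferative, 24.8 to 29.3 on the prehypertrophic and 239 to 256 on the hypertrophic arrays. The part of red cells in the result was not tested. With the authors' deposited values the difference was 0.13.

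miR-126-3p, the miRNA of endothelial cells, was well above background on the 2 hypertrophic arrays alone (5.12 and 5.56) and at the floor on the 4 others. Its hypertrophic signal was at least 3.15-fold that of the middle zone, and the difference from the outer mean was -0.84 (SE 0.23, adjusted p = 0.118). The other endothelial marker, the 5p arm of the same hairpin, was well above background on no array. Among 5 markers of white cells and marrow only miR-223 was tested, with a difference of -0.33 (adjusted p = 0.551). The summed scaled signal of the 5, which background subtraction can bring under 0, was -1.81 to 0.155 on the proliferative, -0.348 to 3.25 on the prehypertrophic and 12.5 to 23.1 on the hypertrophic arrays. For the 2 endothelial markers these ranges were -5.22 to -4.28, -5.01 to -2.13 and 31.9 to 45.7. The prehypertrophic arrays were thus near 0 for both kinds of marker, and the part of these cells in the results was not tested.

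A late step was also measured for the probe of miR-2132, whose name belongs to the series miR-2132 to miR-2138, names that have since been retired. miR-2132 was at 8.52 and 8.96 on the proliferative, 8.58 and 8.86 on the prehypertrophic and 10.64 and 10.52 on the hypertrophic arrays. The middle and proliferative zones overlapped, and both were far under the hypertrophic zone. Its difference was -0.94 (SE 0.23, adjusted p = 0.0948), and the middle zone was under the hypertrophic zone by a log2 difference of -1.86 (SE 0.27, adjusted p = 0.0032). miR-2137 (-0.63), miR-2138 (-0.58) and miR-2135 (-0.26) were negative too, as were all 6 tested names of the series, with a median of -0.42 and with 0 called. 

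The clearest candidates for a dip were dim and did not pass. Both prehypertrophic arrays lay below all 4 outer arrays for 23 miRNAs (10.2%), none of which was called. Their differences ran from -0.70 to -0.30 with a median of -0.45, and the mean log2 signal of 15 of the 23 lay under the median of all tested miRNAs, 5.56. miR-1901 had the largest of these differences, -0.70 (SE 0.25, adjusted p = 0.306), with 3.66 and 3.83 on the prehypertrophic, 4.03 and 4.54 on the proliferative and 4.82 and 4.40 on the hypertrophic arrays. miR-1964 followed with -0.65 (SE 0.24, adjusted p = 0.306), at 3.86 and 4.21 in the middle zone and between 4.43 and 4.96 on the outer arrays. Each was well above background on 1 of the 2 prehypertrophic arrays, so the floor limits how low the middle zone could read. miR-1898, also among the 23 and named after its values were seen, was tested through the hypertrophic zone alone. For most of the 23 the signal was higher in the second run of title numbers than in the first. This held for 21 on the proliferative, 19 on the prehypertrophic and 21 on the hypertrophic arrays. Over all tested miRNAs it held for 54.9%, 67.7% and 54.4%, and the cause was not tested.

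Brighter members of the 23 included miR-92a* and miR-705. miR-92a*, the star arm of miR-92a, was at 5.80 and 6.01 on the prehypertrophic arrays, 6.36 and 6.72 on the proliferative and 6.64 and 6.22 on the hypertrophic arrays, a difference of -0.58 (SE 0.24, adjusted p = 0.361). miR-705 was at 5.56 and 5.99, against 6.03 to 6.47 on the outer arrays (-0.53, adjusted p = 0.443). miR-1892 (-0.64) and miR-1188 (-0.57) also belonged to the 23. miR-1966 (-0.63, adjusted p = 0.306) did not, since its prehypertrophic arrays at 4.24 and 3.93 overlapped the proliferative ones at 4.18 and 4.37.

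**Figure D3:**
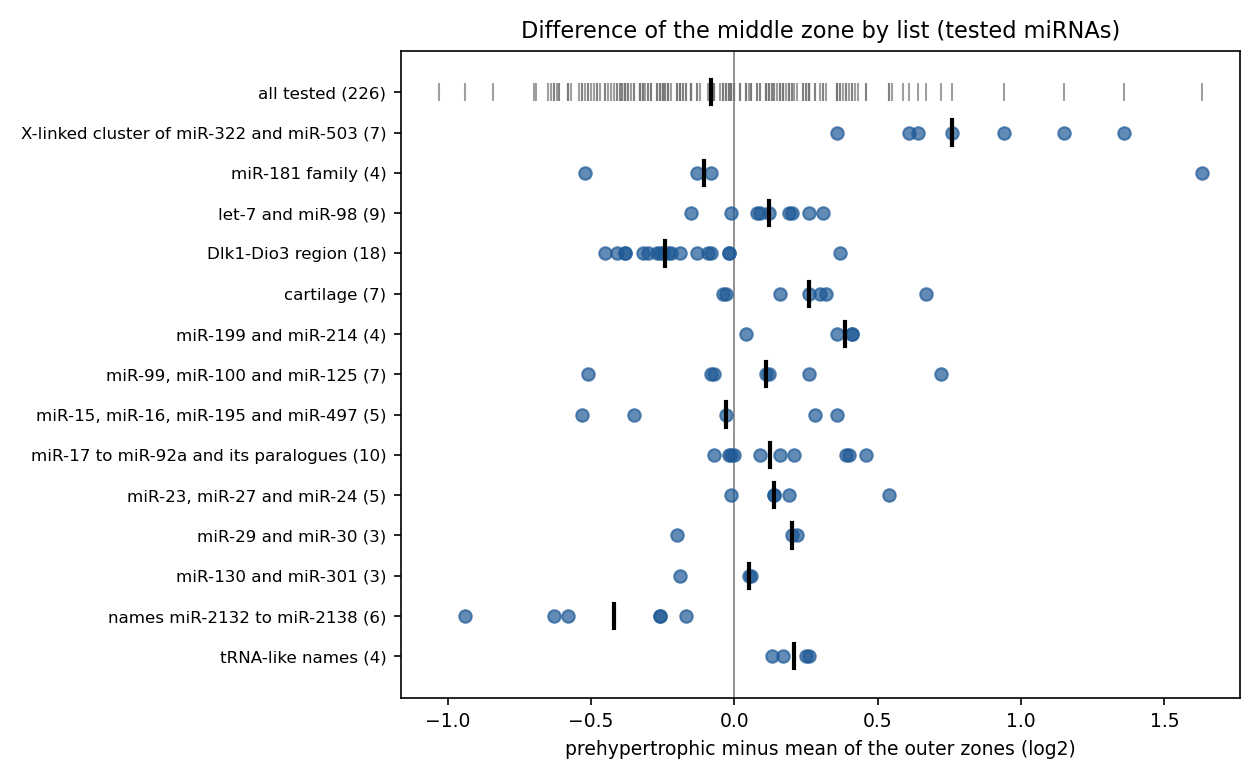
Difference of the prehypertrophic zone from the mean of the outer zones (log2) for the tested miRNAs of each list with at least 3 of them, with all 226 tested miRNAs as ticks at the top and the number tested in parentheses. Black bars are medians. The X-linked cluster has the highest median, 0.76, and the names miR-2132 to miR-2138 the lowest, -0.42, beside -0.08 for all tested miRNAs.

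None of the 7 tested miRNAs of the cartilage list was called, and miR-455*, described above, was the 1 member with both prehypertrophic arrays above all outer arrays. miR-140 was at 11.26 and 10.55 on the proliferative, 10.79 and 10.78 on the prehypertrophic and 9.94 and 10.35 on the hypertrophic arrays, with the middle zone inside the proliferative range (difference 0.26, SE 0.26, adjusted p = 0.652). miR-140* had a difference of 0.16 (SE 0.27, adjusted p = 0.774). miR-455 (0.30) and miR-193b (0.32, adjusted p = 0.551 each), 2 further miRNAs of chondrocytes, did not pass either. Of the 7 tested members of the cartilage list 5 differences were positive and 2 negative, with a median of 0.26. All 7 were positive under the other scalings, with the authors' deposited values (median 0.50) and with the slide row as a block (median 0.72). miR-210, which hypoxia induces, had a difference of 0.17 (SE 0.23, adjusted p = 0.728).

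None of 5 larger families held a call. let-7 and miR-98, a family that rises as cells differentiate, had 7 positive and 2 negative differences among 9 tested members (median 0.12), with miR-98 at 0.31 and let-7i at 0.26. Under the other scalings 8 were positive (medians of 0.19 to 0.24), and all 9 were with the authors' deposited values (0.33) and the row block (0.48). miR-199 and miR-214, transcribed together in mesenchyme, had 4 of 4 positive differences (median 0.39, and 0.69 with the slide row as a block), with miR-199a-3p and miR-199a-5p at 0.41 each and miR-199b* at 0.36. miR-99, miR-100 and miR-125 had 4 positive and 3 negative among 7 (median 0.11), with miR-99b* at -0.51. With the authors' deposited values 6 were positive (0.31), and with the row block 5 were (0.25). The 10 tested miRNAs listed for the miR-17 to miR-92a type, which leave out miR-92a* (-0.58), had 7 positive and 3 negative differences with a median of 0.12. All 10 were positive with the authors' deposited values (median 0.44) and under the other scalings except quantile normalization, where 9 were, as with the row block (0.41). The 5 tested of the miR-23, miR-27 and miR-24 clusters had 4 positive and 1 negative (median 0.14), with miR-27a at 0.54 and miR-24 at 0.19. Under quantile normalization 3 were positive and 2 negative, while all 5 were positive under the other scalings, with the authors' deposited values and with the row block (median 0.71).

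The imprinted Dlk1-Dio3 region, which holds one of the largest groups of mammalian miRNAs, gave 1 positive and 17 negative differences among the 18 tested miRNAs listed for it (median -0.24), beside 132 negative differences among all tested (58.4%). Among the 18 listed, the lowest values belonged to miR-341 (-0.45), miR-382 (-0.41), miR-300 (-0.38) and miR-770-3p (-0.38), none of them called (adjusted p of 0.503 to 0.533). miR-341, miR-300 and miR-770-3p had both prehypertrophic arrays below all outer arrays, as 10.2% of all tested miRNAs did. The direction of this group depended on the setting: with the slide row as a block 10 were positive and 8 negative (median 0.10), and with the authors' deposited values 7 were positive and 11 negative. The 4 names that resemble tRNA fragments had 4 positive differences (median 0.21), and 4 negative ones with the slide row as a block (median -0.24).

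The middle zone could also be placed along the change between the outer zones. Between these, 13 miRNAs were higher (5.75%) and 20 lower (8.85%) in the hypertrophic zone at an adjusted limma p under 0.05. For each of the 20 that were lower, the mean of the middle zone lay between the outer means, having covered 0.32 to 0.87 of the log2 step (median 0.57). Of these, miR-154 and miR-675-3p were at the floor on both hypertrophic arrays, so the middle mean could not lie beyond the hypertrophic one. miR-337-5p was at 3.66 and 3.68 there, at or near the floor. The shares of these miRNAs depend on the floor. miR-154 and miR-337-5p were named after their values were seen. The 13 that were higher were more varied: 7 lay between the outer means, 2 lay beyond the hypertrophic mean and 4 at or beyond the proliferative mean. miR-503 reached 118% of the step. miR-181a-1* reached 125%, a share that depends on the floor, since its proliferative arrays were both there. miR-22 and miR-322 had covered 91.1% and 90.9% of it and miR-193b 77.3%. miR-451 had covered 25.4% and miR-21, a miRNA common in many tissues, 22.4%. Both of these shares depend on the floor, where the second proliferative array lay for each. miR-2132, miR-2137 and miR-2138 lay slightly under the proliferative mean. For miR-126-3p, at the floor in both zones, the floor sets the share to 0, and whether part of the step was covered was not measured. The same proliferative and hypertrophic arrays define the step and the position within it, so these shares describe the means and were not tested.

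**Figure D4:**
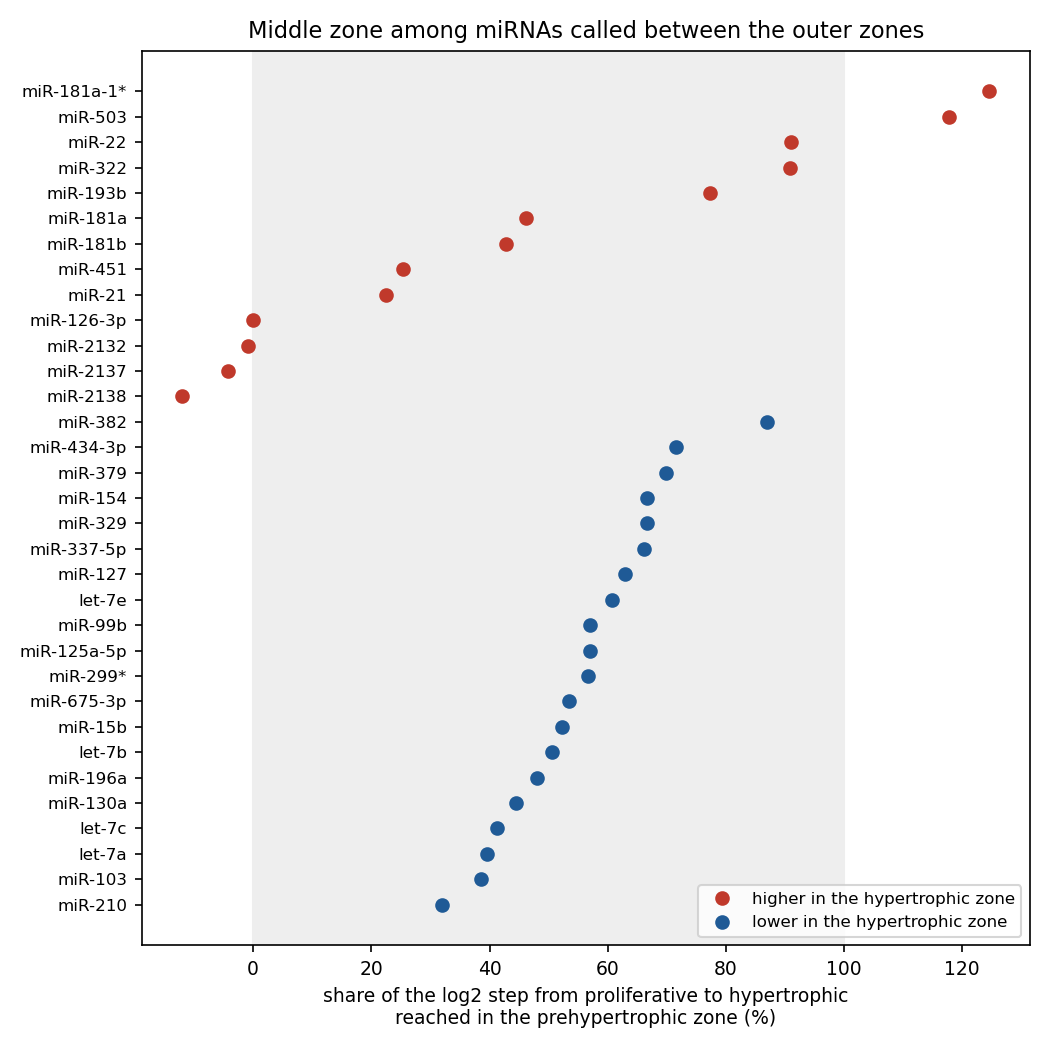
Share of the log2 step from the proliferative to the hypertrophic mean that was reached in the prehypertrophic zone (%), for the 13 miRNAs that were higher and the 20 that were lower in the hypertrophic than in the proliferative zone. The shaded band marks means that lie between the outer zones. The 20 miRNAs lower in the hypertrophic zone (blue) all lie inside it, between 32% and 87%, while those higher there (red) run from -12% to 125%. miR-154 and miR-675-3p were at the floor in the hypertrophic zone, so they could not lie past the band on that side.

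Set against each neighbour alone, the middle zone held 5 calls higher than the proliferative zone (2.21%) and 3 lower than the hypertrophic zone (1.33%). The 5 were miR-181a-1*, miR-503, miR-322, miR-322* and miR-22, and the 3 were miR-451, miR-2132 and miR-126-3p. No miRNA was in both sets. These comparisons share the prehypertrophic arrays. Over all tested miRNAs, the prehypertrophic mean was above both outer means for 53 (23.5%) and below both for 90 (39.8%), and between them or level with one for the rest.

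The 4 calls depended on the processing and on single arrays. The difference of miR-181a-1* was positive in all 20 other settings that could test it (0.64 to 3.55) and called in 8, and that of miR-322* was positive in 20 (0.49 to 1.85) and called in 4. That of miR-503 was positive in 21 settings (0.85 to 1.44) and called in 6. That of miR-451 was called in 4 of 20. Leaving out any single array other than the first prehypertrophic one left 0 calls (13 to 51 miRNAs at an unadjusted limma p under 0.05), and leaving out that one left miR-181a-1* and miR-322*. By position on the slide, the prehypertrophic pair shared 1 row and the hypertrophic pair the other, while the proliferative pair was split between them. With the row as a block the differences were 1.63 for miR-181a-1*, 1.85 for miR-322* and 1.28 for miR-503, none called. No contrast of all 3 zones could be formed within a row. The row term rests on the proliferative pair alone, which also differed by run of title numbers. It cannot tell a row effect from any other gap between those arrays, for these and all other values given with the row block. For miR-181a-1* both of those arrays were at the floor, so its value could not change. Within the first and second run of title numbers, which hold 1 array of each zone, the differences were 1.38 and 1.89 for miR-181a-1*, 0.93 and 1.79 for miR-322*, 0.93 and 1.37 for miR-503, and -1.05 and -1 for miR-451.

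**Figure D5:**
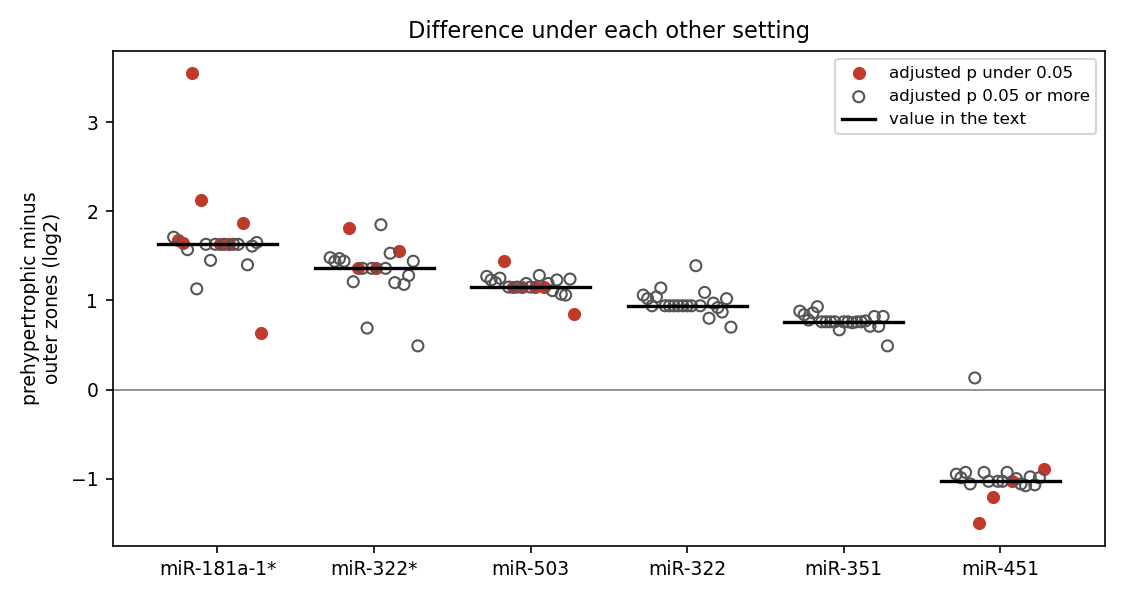
Difference of the prehypertrophic zone from the mean of the outer zones (log2) for 6 miRNAs under each other setting, including each array left out in turn. Filled points have an adjusted p under 0.05, open points do not, and black bars are the values given in the text. All values of miR-181a-1*, miR-322*, miR-503, miR-322 and miR-351 are above 0, and 1 value of miR-451, from the authors' deposited values, is above 0 at 0.13.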

How the data were processed

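The authors deposited Agilent scanner files of 6 one-colour arrays (mouse miRNA design, miRBase version 14), extracted with Feature Extraction 10.7.3.1 per the file headers, which hold intensity per spot with background subtracted. A table of log2 values, also deposited by the authors, was an alternative here: each column equals log2 of the total signal per miRNA (at least 1) minus a constant for its array. Spots of a probe were averaged without outliers (384 to 515 flagged spots per array), scaled to the 75th percentile of the 342 probes well above background on all 6 arrays, floored at 12.66 and taken to log2. The probe with the highest mean stood for each miRNA. limma 3.58.1 (R 4.3.3) fitted zone on all 6 arrays, with Benjamini-Hochberg adjustment over 226 miRNAs. It moderated the spread of each miRNA within zones (3 residual degrees of freedom) towards a value pooled over all tested miRNAs (7.83 prior degrees of freedom). The test of lying outside both outer zones took the larger p of the 2 contrasts where they had the same sign. The number of arrays limits the precision.

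Up to 10 miRNAs per direction by smallest p-value were named, up to 5 per direction for lying outside both outer zones, up to 4 of each list, and miR-322, miR-322*, miR-503, miR-140, miR-140*, miR-451 and miR-210 always. Members and lists were chosen with earlier results of these data known. Alternatives covered scaling, floor, filter, probe choice, fit, blocks, background correction and leaving out each array. Sequences were matched to RefSeq by miRNA name.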

Additional observations from a re-analysis of the deposited data

How the results depend on the processing

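Beside 3 higher and 1 lower call, other settings gave as higher and lower calls: 0 and 0 in a 2-group fit, with the 75th percentile of all probes, with the slide row as a block, with dim miRNAs kept in and with no scaling (10 to 57 miRNAs at an unadjusted limma p under 0.05); 1 and 0 with median scaling, quantile normalization or only miRNAs well above background on all 6 arrays; 0 and 1 with 2 times the floor or the mean over all probes; 3 and 1 with 0.5 times the floor, where miR-126-3p took the place of miR-451 as the lower call; 3 and 0 with limma-trend; and 6 and 1 with the authors' deposited values. The last added miR-181a, miR-183 and miR-450b-3p as higher and miR-126-3p as lower, without miR-451. Leaving out single arrays gave 0 to 2 higher and 0 lower calls. With the run of title numbers as a replicate block 2 were higher and 1 lower, miR-322* no longer passing. The labels do not call these runs pairs, although deviations of arrays from their zone mean correlated across miRNAs within a run (0.59, 0.73 and 0.29). Normexp on the median spot signal, added after seeing the data because the mean signal was not in the files used here, gave 2 and 2, and normexp on the mean signal was not run. No setting gave a call above or below both outer zones (0 and 0). The median of all miRNAs shifted by 0.12 with the 75th percentile of all probes, 0.10 without scaling and 0.20 with the authors' values. Signs turned for miR-451 (0.13), miR-181a (1.5) and miR-183 (1.14, named after its value was seen) with the authors' values; for miR-183 with 0.5 times the floor (0.03); for miR-181a with quantile normalization (0.03), 0.5 times the floor (0.42), and without the first prehypertrophic (0.01) or the second hypertrophic array (0.06), within a range of -0.22 to 0.06 without single arrays; for miR-382 (0.22), miR-15a (0.27), miR-16 (0.31), miR-21 (0.13) and miR-466g (-0.03) with the row block; for miR-181b without the first prehypertrophic array (-0.45 to 0.19 without single arrays), miR-140* without the second proliferative array (-0.03 to 0.35) and miR-350 with normexp (-0.05). The causes were not tested.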
